A study of Mus musculus with 12 samples.

Results

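The ZBTB genes of the mouse thymus were described here from bulk poly(A) RNA sequencing of sorted DP and CD4 thymocytes. They were taken as every gene symbol present in both count tables that consists of Zbtb, a number and at most 1 letter, without Zbtb7b and Zbtb16. This gave 38 of the 49997 genes measured, lying on 15 chromosomes. DP thymocytes, which bear CD4 together with CD8, are the stage at which T cells are selected, and CD4 thymocytes are mature cells that have lost CD8. The 4 groups were WT DP, Satb1 KO DP, WT CD4 and Satb1 KO CD4 cells, with 3 libraries each. All 12 libraries, the WT ones included, were labelled as tamoxifen-treated, and the knockout is described as induced by tamoxifen. The sources used here do not give the driver of the recombinase, the ages of the mice or the sorting gates.

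ZBTB proteins pair an amino-terminal BTB domain, which lets them form dimers and recruit corepressor complexes, with carboxy-terminal zinc fingers that bind DNA. Many act as transcriptional repressors, and several set lineage choices of lymphocytes. Zbtb4, Zbtb33 (Kaiso) and Zbtb38 form a subgroup whose fingers can bind methylated DNA. Zbtb17 (Miz-1) is a partner of MYC, Zbtb1 is needed for lymphoid development, and Zbtb7a (LRF) has roles in the choice between the B and T lineages and in the CD4 lineage. SATB1, whose gene the KO targets, is a chromatin organiser of T cells.

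DP WT replicate 3 had the lowest total count, 22790504, and CD4 KO replicate 2 the highest, 62422640. A floor of 3 counts then equals 0.0464 to 0.134 CPM (read counts scaled to a common library size), and it covers counting error only. Whether libraries of 1 group stem from different mice is not stated in the labels, so the p-values given take in only library-to-library spread, which may be technical. The replicate number is given as a batch number in the labels. Satb1 lay between 3832 and 3888 CPM in DP WT, between 2455 and 2873 in DP KO, between 2999.9 and 3513 in CD4 WT and between 1469 and 1545 in CD4 KO. Its RNA was thus lower but still counted in every KO library, and no protein was measured. Xist, which is made from the inactive X chromosome, stood at 0.845 and 0.273 CPM in DP WT replicates 1 and 2 and at 189.6 to 601 CPM in the other 10 libraries. The labels do not say which sexes each library holds. The fits were therefore repeated with DP WT replicate 3 as the only DP WT library. The part of sex in the comparisons that use DP WT was not tested. The sorted stages carried their markers: the 10 DP markers summed to between 13226 and 14416 CPM in DP WT and to between 1538 and 1985 CPM in CD4 WT. In these bulk libraries, fewer cells of a type and less RNA per cell cannot be told apart.

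Of the 38 genes, 37 had at least 1 count in every library. Zbtb7c was the exception, with 6 counts in DP WT replicate 1, 1 count in CD4 KO replicate 1 and 0 in the other 10, and it was not tested. Levels of different genes are compared as RPKM, which are CPM divided by the exon length in kilobases as deposited. For Zbtb8a, Zbtb8b, Zbtb12 and Zbtb22 that length adds copies on alternative sequences to the copy on the chromosome. In DP WT cells Zbtb18 (RP58), a repressor best known from developing neurons, ranked first at 29.0 ± 1.76 RPKM (SD, n = 3). It was followed by Zbtb17 at 22.3 ± 2.09 and Zbtb2 at 20.4 ± 0.841 RPKM, which differed by less than their spread. In CD4 WT cells the order was Zbtb2 at 21.4 ± 0.857, Zbtb17 at 19.6 ± 1.83, Zbtb9 at 18.1 ± 1.31 and Zbtb18 at 12.8 ± 0.131 RPKM. With the exon length on the chromosome only, 2607 in place of 10428 bases, Zbtb22 stood at 11.7 ± 0.748 in place of 2.91 ± 0.187 RPKM in DP WT and at 14.4 ± 0.746 in place of 3.61 ± 0.186 RPKM in CD4 WT, where it came before Zbtb18. Neighbours among the first 3 in CD4 WT lay within their spread of each other, and Zbtb18 stood below them. With the deposited lengths Zbtb4 ranked 20 in DP WT at 3.28 ± 0.116 RPKM, 6 in CD4 WT at 11.6 ± 1.28 and 16 in CD4 KO at 5.83 ± 0.495. With the lengths on the chromosome its ranks were 22, 7 and 17. The same change of length put Zbtb12 at 3.51 ± 0.323 in place of 0.917 ± 0.0841 RPKM in DP WT, rank 21 in place of 31. In DP KO it put Zbtb12 at 6.54 ± 0.441 in place of 1.71 ± 0.115 RPKM, rank 15 in place of 28. At the low end stood Zbtb32, Zbtb46, Zbtb8b and Zbtb7c, all under 1 RPKM in every group. Zbtb3 and Zbtb20 were also under 1 RPKM in every group, and in CD4 KO Zbtb20 ranked 35, after Zbtb32 at 34. The mean level was at least 10 CPM for 29 members in DP WT, 30 in DP KO, 29 in CD4 WT and 31 in CD4 KO.

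**Figure D1:**
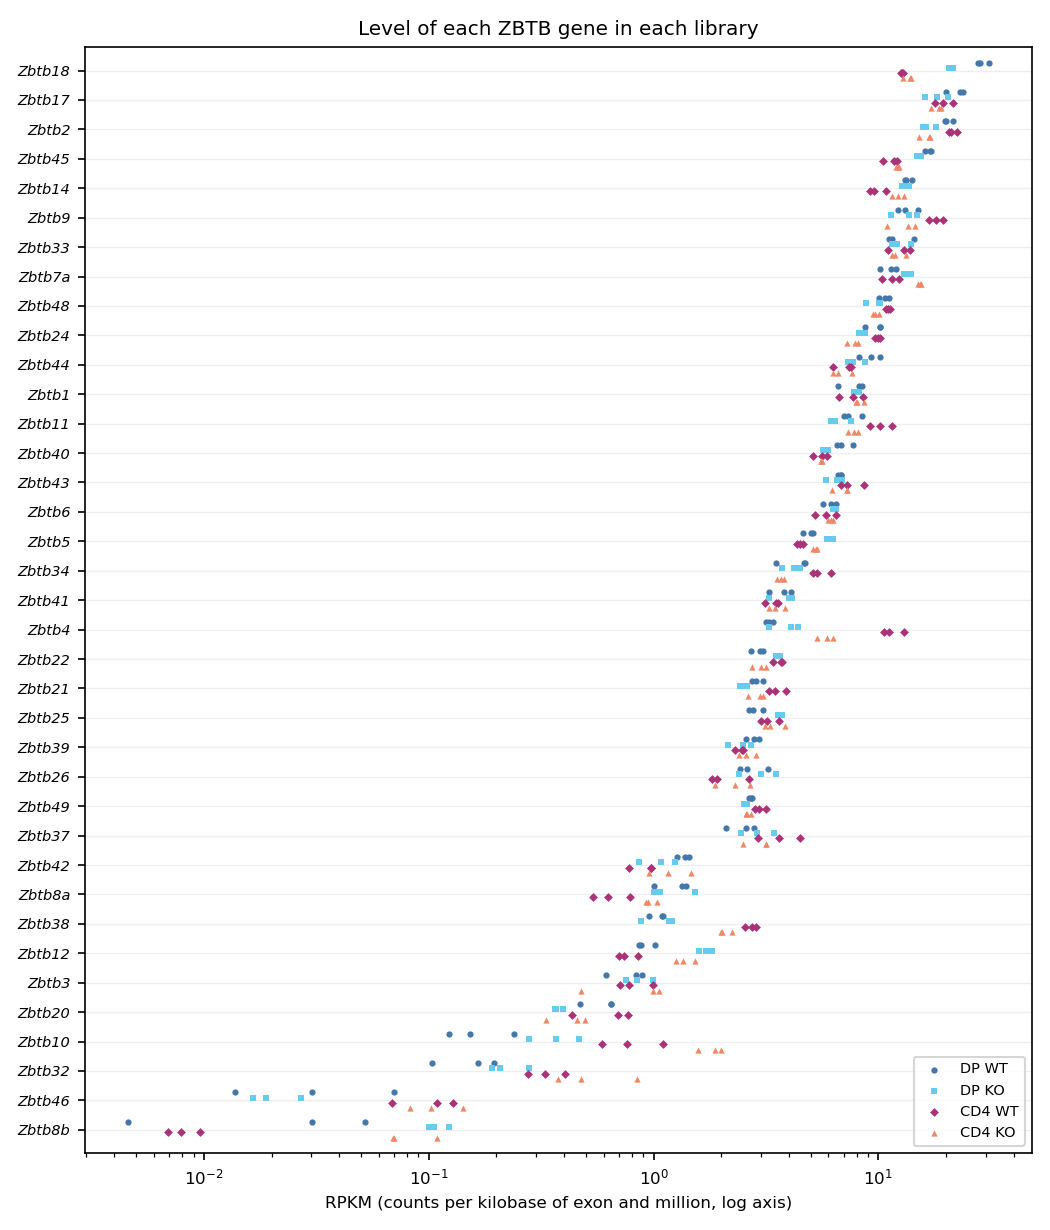
RPKM of each ZBTB gene (rows, ordered by the DP WT mean) in each of the 12 libraries, on a log axis, with the 4 groups in 4 colours and marker shapes and 1 point per library. Zbtb18, Zbtb17 and Zbtb2 lead in DP WT, Zbtb4 and Zbtb10 shift between groups by more than the spread within them, and Zbtb7c, with 0 counts in 10 libraries, is not drawn. The deposited lengths are used, which for Zbtb8a, Zbtb8b, Zbtb12 and Zbtb22 include copies on alternative sequences.

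Added over the 38 genes, the family took up 1384 to 1495 CPM in DP WT and 1360 to 1395 CPM in DP KO, 1413 to 1529 CPM in CD4 WT and 1334 to 1365 CPM in CD4 KO. The ranges of WT and KO overlapped in DP and did not overlap in CD4, where KO was the lower. Abundant genes weigh most in such a sum. In CD4 KO 7 members were called higher and 9 lower, with a median log2 fold change of 0.04.

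Promoter windows from RefSeq (build GRCm38.p6), which run from 250 bases before to 50 bases after an annotated start, were given for 34 of the 38 genes, as 46 windows. No window was given for Zbtb7c, Zbtb10, Zbtb40 and Zbtb48. The 250 bases before the start are printed for 4 genes whose RNA shifted between the stages or with the KO: Zbtb4, Zbtb38, Zbtb34 and Zbtb18. Capitals mark the ETS motif CCGGAAG, in either direction, and each stretch is written in the direction of its gene.
Zbtb4, chr11:69765662-69765911, plus strand: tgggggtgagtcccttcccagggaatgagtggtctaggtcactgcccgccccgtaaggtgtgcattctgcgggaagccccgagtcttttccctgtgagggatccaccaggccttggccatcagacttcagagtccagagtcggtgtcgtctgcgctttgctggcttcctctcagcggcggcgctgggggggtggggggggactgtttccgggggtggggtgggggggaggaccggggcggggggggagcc
Zbtb38, chr9:96719851-96720100, minus strand: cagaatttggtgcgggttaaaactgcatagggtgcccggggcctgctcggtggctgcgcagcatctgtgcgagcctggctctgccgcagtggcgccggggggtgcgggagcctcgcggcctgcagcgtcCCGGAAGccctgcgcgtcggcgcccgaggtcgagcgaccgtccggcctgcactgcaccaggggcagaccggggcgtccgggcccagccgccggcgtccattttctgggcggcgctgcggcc
Zbtb34, chr2:33431325-33431574, minus strand: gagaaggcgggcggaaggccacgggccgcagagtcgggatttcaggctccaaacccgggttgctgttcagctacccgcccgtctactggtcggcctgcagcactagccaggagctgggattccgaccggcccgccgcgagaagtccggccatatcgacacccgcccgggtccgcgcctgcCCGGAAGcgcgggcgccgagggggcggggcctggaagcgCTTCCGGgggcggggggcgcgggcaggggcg
Zbtb18, chr1:177442101-177442350, plus strand: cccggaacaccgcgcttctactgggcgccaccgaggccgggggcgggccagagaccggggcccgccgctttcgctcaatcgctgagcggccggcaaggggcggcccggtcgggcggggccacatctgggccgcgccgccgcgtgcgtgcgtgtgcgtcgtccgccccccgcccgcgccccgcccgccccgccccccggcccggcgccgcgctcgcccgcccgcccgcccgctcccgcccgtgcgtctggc
The stretch before Zbtb34 holds 2 ETS motifs, that before Zbtb38 holds 1, and those before Zbtb4 and Zbtb18 hold none. The Zbtb38 window was picked for holding ETS motifs, so their presence there is not a result. The other windows of Zbtb38 hold no ETS motif. Zbtb38 and Zbtb18 have further annotated starts, so the stretches shown stand for 1 of several. Over the 5 windows of Zbtb18 the G or C share ran from 38.3% to 81.7% and the number of CpG from 1 to 51.

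Over all 46 windows the median G or C share was 65.7%, against 52.7% over the 32851 windows of 27025 genes in the table, and 37 of the 46 lay above that median. The median number of CpG was 25.5 against 7. The ETS motif CCGGAAG was found in 12 of the 46 windows (26.1%), 1 window each of Zbtb6, Zbtb9, Zbtb11, Zbtb24, Zbtb26, Zbtb33, Zbtb34, Zbtb37, Zbtb38, Zbtb41, Zbtb43 and Zbtb45, against 8.86% of all windows. The E-box CACGTG, a motif bound by MYC with MAX, was in 6 windows (13.0% against 7.15%), of Zbtb11, Zbtb21, Zbtb24, Zbtb25 and Zbtb49. The Kaiso motif TCCTGCNA was in 4 windows (8.70% against 4.96%), of Zbtb18 and Zbtb37, and the RUNX motif TGTGGTT in 2 (4.35% against 5.27%), of Zbtb14 and Zbtb26. The NRF1 motif was in 3 windows (6.52% against 0.971%), of Zbtb17 and Zbtb41. Both strands were searched, windows of 1 gene can share bases, and a match describes letters, not binding. The set of all windows was not matched to the members' for G or C share or number of CpG. A higher motif share is thus not shown to be particular to the family.

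Maturation was read from WT CD4 against WT DP cells. Here 11 of the 36 ZBTB genes tested were higher in CD4 and 7 were lower, and Zbtb7c and Zbtb8b were not tested. Over all 17369 genes tested 55.0% were called, 28.0% higher and 27.1% lower, so the family's share, 18 of 36, is near the background. The median log2 fold change of the family was 0.04, against 0.00 over all genes, and the median absolute change was 0.30 against 0.51. A gene was called at a Benjamini-Hochberg adjusted p under 0.05 in edgeR's quasi-likelihood test, adjusted over all genes tested. All 18 called members differed in the same direction in all 3 batches. How often this holds over all called genes was not worked out, so it adds no support to the calls. Of 10 cell cycle genes all were lower in CD4 WT, their sum running from 3671 to 4345 CPM in DP WT and from 962 to 1282 CPM in CD4 WT. Markers of innate-like and gamma-delta T cells summed to 2.46 to 3.03 CPM in DP WT and to 37.1 to 58.0 CPM in CD4 WT, with 3 of 3 tested higher. The part of these shifts in the ZBTB results was not tested.

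Within the methyl-DNA-binding subgroup, Zbtb4 stood at 27.5, 28.7 and 26.7 CPM in DP WT replicates 1 to 3 and at 89.4, 109.9 and 93.7 CPM in CD4 WT. Every CD4 library was more than double any DP library, with a log2 fold change of 1.82 ± 0.09 (SE; adjusted p = 1.05e-07), a 3.53-fold rise. Zbtb38 stood at 21.3, 24.5 and 24.8 CPM in DP WT and at 61.6, 63.9 and 57.4 CPM in CD4 WT, again without overlap (1.37 ± 0.09, adjusted p = 5.63e-07). Zbtb33, the founding gene of the subgroup, stood at 56.8, 59.2 and 73.8 CPM in DP WT and at 56.8, 66.7 and 71.0 CPM in CD4 WT. These values of Zbtb33 overlapped (0.03, adjusted p = 0.818), and it was called in none of the comparisons.

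The most abundant member of DP cells went the other way. Zbtb18 fell from 196, 199 and 219 CPM in DP WT to 91.0, 90.2 and 89.2 CPM in CD4 WT (-1.19 ± 0.07, adjusted p = 2.1e-07). Zbtb10, reported as a repressor of genes for Sp factors, rose from 0.913, 1.13 and 1.78 CPM to 5.68, 4.40 and 8.24 CPM (2.29 ± 0.31, adjusted p = 0.000125). Zbtb8a fell from 4.45, 5.94 and 6.16 CPM to 3.46, 2.78 and 2.38 CPM (-0.93 ± 0.21, adjusted p = 0.00347). For all 3 of these genes the libraries of the stages did not overlap.

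Smaller rises were called for Zbtb37 (0.56, adjusted p = 0.0106), Zbtb11 (0.44, 0.0042), Zbtb9 (0.43, 0.00358), Zbtb34 (0.37, 0.0285), Zbtb22 (0.30, 0.0108) and Zbtb21 (0.29, 0.0173). Smaller falls were called for Zbtb42 (-0.58, 0.0158), Zbtb45 (-0.55, 0.00025), Zbtb14 (-0.46, 0.000943), Zbtb44 (-0.38, 0.00853) and Zbtb40 (-0.35, 0.00829). Zbtb45 shows the size of such a change, with 44.9, 45.6 and 42.6 CPM in DP WT and 31.0, 32.0 and 27.9 CPM in CD4 WT. Some of these calls were lost with 1 library left out or with another setting, and the cause was not tested. Zbtb21 had an adjusted p of 0.0701 without CD4 WT replicate 1 (log2 fold change 0.23) and 0.0679 without DP WT replicate 2 (0.26). Zbtb34 had 0.0998 without CD4 WT replicate 2 (0.29) and 0.085 without DP WT replicate 1 (0.24). Zbtb42 had 0.0528 without DP WT replicate 1 (-0.54) and 0.0668 without the low-count filter (-0.51). With DP WT replicate 3 as the only DP WT library 7 members were higher, and the adjusted p was 0.145 for Zbtb11, 0.0975 for Zbtb37, 0.167 for Zbtb40, 0.244 for Zbtb21, 0.23 for Zbtb34 and 0.115 for Zbtb42. With the batch number as a block, Zbtb17 (-0.19, adjusted p = 0.0245) and Zbtb26 (-0.37, 0.0125) were also called, against 0.102 and 0.0987 without it. For these refits no share over all genes is given.

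A pair of scarce members with known roles in other immune cells also passed the test. Zbtb32, which restrains lymphocyte responses, stood at 0.639, 0.755 and 0.402 CPM in DP WT and at 1.08, 1.56 and 1.27 CPM in CD4 WT (1.08 ± 0.34, adjusted p = 0.021). The call was lost without CD4 WT replicate 2 (0.0894) or DP WT replicate 3 (0.0509). Zbtb46, a marker of classical dendritic cells, stood at 0.685, 0.294 and 0.134 CPM in DP WT and at 1.06, 1.25 and 0.670 CPM in CD4 WT (1.35 ± 0.51, adjusted p = 0.0468). Its groups overlapped, and the call was lost without CD4 WT replicate 1 (0.111), CD4 WT replicate 2 (0.146), DP WT replicate 2 (0.143) or DP WT replicate 3 (0.0983), and with the DESeq2 Wald test (0.062). Of 10 other dendritic and myeloid markers, 7 were higher in CD4 WT and 2 lower. Their summed level was 70.8 to 87.6 CPM in DP WT and 62.0 to 98.0 CPM in CD4 WT, with none at 0. Their part in the Zbtb46 result was not tested.

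In DP cells the KO was compared with WT next. Of 37 ZBTB genes tested, 7 were higher in KO and 3 lower (27.0%), against 30.8% called over all 16776 genes, 16.7% higher and 14.1% lower. In the main fit the share of the family is near the background. With DESeq2 size factors the split was 7 higher and 5 lower, without a share over all genes beside it. The members' median log2 fold change was -0.01, against 0.01 over all genes, and their median absolute change 0.18 against 0.29. All 10 called members moved the same way in all 3 batches with no overlap between groups. The same share over all called genes was not worked out, so this adds no support to the calls. The summed DP markers were 13226 to 14416 CPM in WT and 7933 to 8177 CPM in KO, where 8 of the 10 were called lower and 1 higher. Their part in the results on ZBTB genes was not tested.

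Zbtb18 showed the lower call with the smallest adjusted p among members. It stood at 196, 199 and 219 CPM in DP WT and at 151, 147 and 146 CPM in DP KO, with every KO library under every WT library (-0.46 ± 0.07, adjusted p = 0.00105). Zbtb20, a repressor known from liver, brain and plasma cells, stood at 22.3, 22.2 and 16.2 CPM in DP WT and at 13.5, 12.6 and 12.6 CPM in DP KO (-0.64 ± 0.13, adjusted p = 0.00562). It moved by -0.33 (adjusted p = 0.241) with DP WT replicate 3 as the only DP WT library. Exons of Zbtb20 share 8256 of 34323 bases (24.1%) with Tigit on the opposite strand, and the sources used here do not state whether strand was used in counting. For Tigit itself the DP change was -0.10 (adjusted p = 0.52). Zbtb2 stood at 71.7, 67.3 and 66.5 CPM in DP WT and at 54.5, 52.9 and 60.3 CPM in DP KO, a fall of a size under that of Zbtb18 (-0.28 ± 0.08, adjusted p = 0.0218).

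Among the members that rose, Zbtb12 stood at 7.56, 6.53 and 6.42 CPM in DP WT and at 12.8, 13.6 and 11.8 CPM in DP KO. This was a 1.87-fold rise (0.91 ± 0.13, adjusted p = 0.000636). Zbtb10 stood at 0.913, 1.13 and 1.78 CPM in DP WT and at 2.09, 2.75 and 3.46 CPM in DP KO (1.16 ± 0.31, adjusted p = 0.0184). Every KO library exceeded every WT library, but the WT replicates of Zbtb10 themselves spread almost over a factor of 2. Zbtb8b was counted 22, 14 and 1 times in DP WT and 73, 56 and 42 times in DP KO, which is 0.502, 0.294 and 0.0446 against 1.20, 1.03 and 0.970 CPM (1.81 ± 0.51, adjusted p = 0.0249). DP WT replicate 3 of Zbtb8b was under the floor of 3 counts, so the size of its rise is loosely set.

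The other 4 rises were small. Zbtb7a stood at 74.1, 83.4 and 87.3 CPM in DP WT and at 102, 100.2 and 94.8 CPM in DP KO (0.29 ± 0.08, adjusted p = 0.021). Zbtb25, whose gene lies head to head with Zbtb1, stood at 20.6, 21.3 and 23.6 CPM in WT and at 28.1, 27.6 and 28.7 CPM in KO (0.38 ± 0.09, adjusted p = 0.0103). For both genes the KO libraries lay close together and above all WT libraries. Zbtb5 (0.31 ± 0.08, adjusted p = 0.0183) and Zbtb22 (0.31 ± 0.08, adjusted p = 0.0192) rose by a like amount. Zbtb17 had -0.28 (adjusted p = 0.0632) and was called with the batch number as a block (-0.28, adjusted p = 0.0227).

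Of the 10 calls, those of Zbtb12 and Zbtb18 held under every alternative tried other than a threshold of 1 on the absolute log2 fold change, which neither reached. With that threshold 2 members, Zbtb8b and Zbtb10, were called in DP, and 12.3% of all genes. With DP WT replicate 3 as the only DP WT library, 2 members were higher and 1 lower, and the adjusted p was 0.358 for Zbtb10, 0.265 for Zbtb2, 0.0867 for Zbtb22, 0.274 for Zbtb25, 0.215 for Zbtb5 and 0.358 for Zbtb7a. Zbtb2 was also not called without the low-count filter (0.0802). The number of members called higher was 3 without DP WT replicate 1, 1 without DP WT replicate 2, and 4 without DP KO replicate 1 or replicate 2. The number called lower was 6 without DP WT replicate 3, when Zbtb17 (adjusted p = 0.0285), Zbtb24 (0.0437) and Zbtb40 (0.0336) were added. The share of all genes called in these fits is not given, so such changes are not shown to be particular to ZBTB genes. Zbtb4, not called with all libraries, was higher without DP KO replicate 3 (0.40, 0.00711). Without DP WT replicate 1 the adjusted p was 0.0728 for Zbtb10, 0.0817 for Zbtb2, 0.0521 for Zbtb25, 0.0788 for Zbtb5 and 0.095 for Zbtb7a. Without DP WT replicate 2 it was 0.0737 for Zbtb10, 0.0571 for Zbtb2, 0.0758 for Zbtb22, 0.0596 for Zbtb25, 0.052 for Zbtb5, 0.072 for Zbtb7a and 0.0838 for Zbtb8b. Without DP KO replicate 1 it was 0.0959 for Zbtb2, 0.0554 for Zbtb5, 0.0754 for Zbtb7a and 0.0767 for Zbtb8b. Leaving out DP KO replicate 2 gave 0.0951 for Zbtb2, 0.0518 for Zbtb22, 0.057 for Zbtb5 and 0.0503 for Zbtb8b, and leaving out DP WT replicate 3 gave 0.0551 for Zbtb22.

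**Figure D2:**
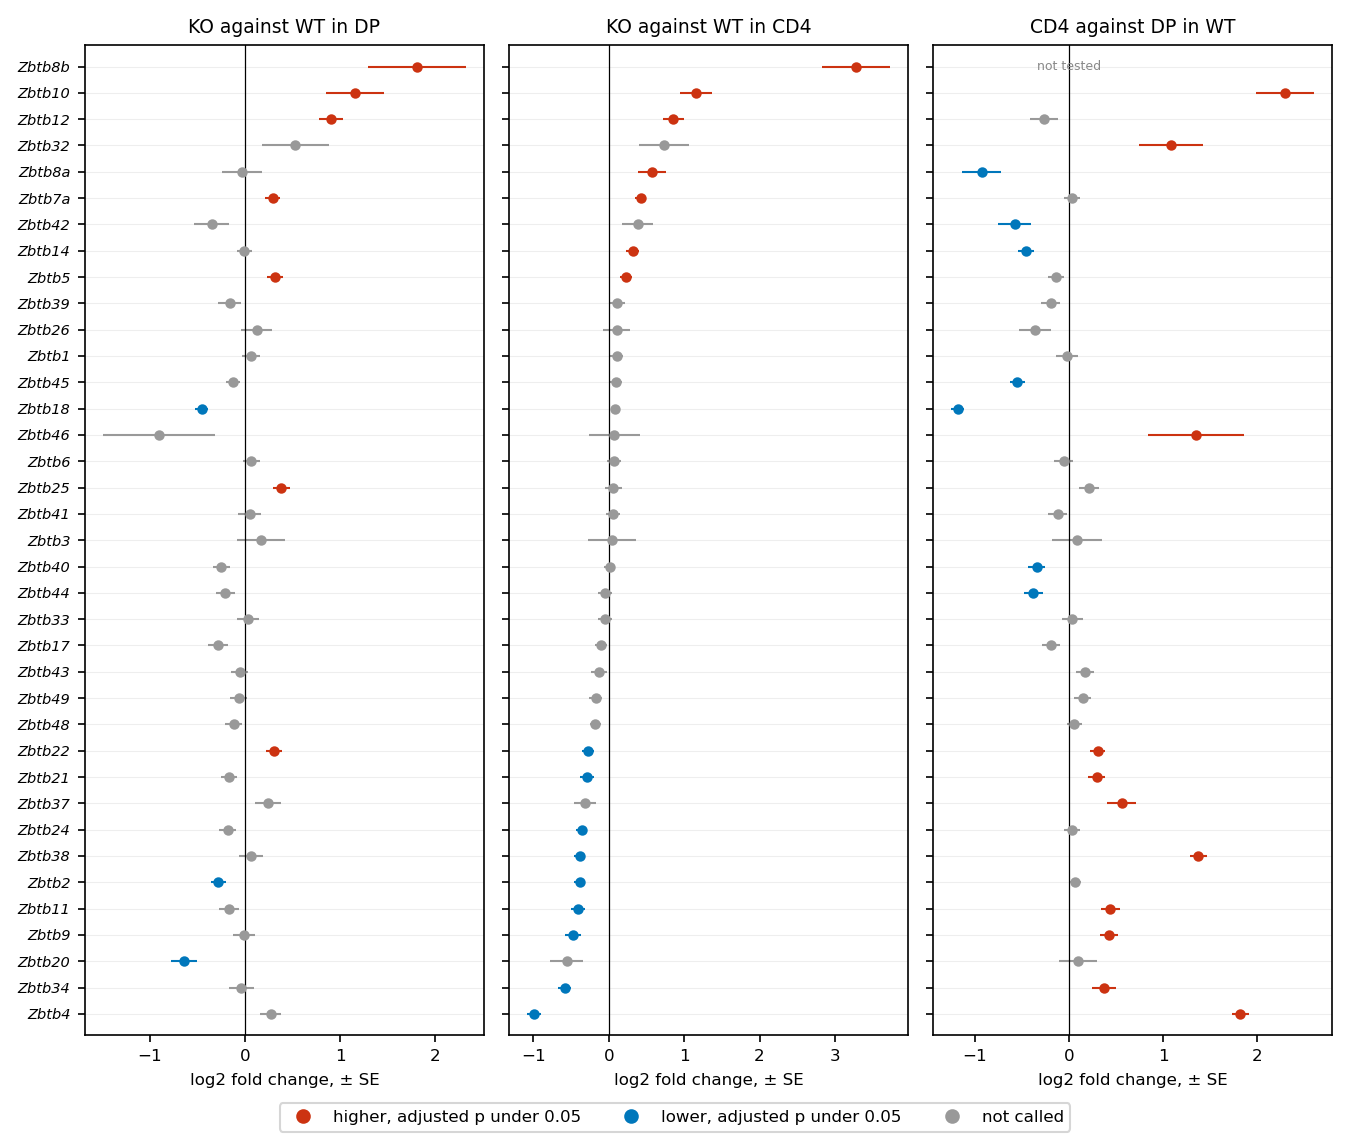
Log2 fold change ± SE of each ZBTB gene tested, with rows in the order of the CD4 comparison, for KO against WT in DP (left), KO against WT in CD4 (middle) and CD4 against DP in WT (right). The horizontal scales differ between panels. Red and blue mark members called higher and lower at an adjusted p under 0.05: 7 and 3 on the left, 7 and 9 in the middle, 11 and 7 on the right.

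In CD4 cells 7 of the 37 ZBTB genes tested were higher in KO and 9 lower (43.2%). The background was 39.5% of 17316 genes, 20.9% higher and 18.6% lower. Again the family's share is near that of all genes, with a median log2 fold change of 0.04 against 0.00 and a median absolute change of 0.28 against 0.33. All 16 called members moved the same way in every batch without overlap between groups, again with no share over all called genes to set beside it. CD4 KO libraries also differed in cell state markers: 10 of 10 cell cycle genes were higher, their sum running from 962 to 1282 CPM in WT and from 2391 to 2957 CPM in KO. Of 10 DP markers 8 were higher and 1 lower (1538 to 1985 CPM in WT, 2924 to 3515 in KO), and of 9 CD4 markers 6 were lower (3453 to 3644 CPM in WT, 1853 to 2014 in KO). Markers of innate-like and gamma-delta T cells summed to 37.1 to 58.0 CPM in WT and to 7.66 to 13.9 CPM in KO, with 2 of 3 tested lower. B cell markers summed to 6.27 to 17.3 CPM in WT and to 20.1 to 30.1 CPM in KO, with 1 of 6 higher. The part of these shifts in the ZBTB results was not tested.

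Zbtb4 had the lower call with the largest change. It stood at 89.4, 109.9 and 93.7 CPM in CD4 WT and at 49.6, 53.1 and 44.8 CPM in CD4 KO. The KO libraries stood between those of DP and CD4 WT cells (-0.99 ± 0.09, adjusted p = 4.15e-05, 1.98-fold). Its methyl-DNA-binding relative Zbtb38 stood at 61.6, 63.9 and 57.4 CPM in WT and at 50.0, 44.6 and 45.2 CPM in KO (-0.39 ± 0.07, adjusted p = 0.0026). Zbtb33 had a change of -0.05 (adjusted p = 0.711), with 56.8, 66.7 and 71.0 CPM in WT and 60.9, 58.7 and 67.9 CPM in KO.

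Zbtb34 stood at 40.9, 47.3 and 39.1 CPM in CD4 WT and at 29.2, 28.3 and 27.2 CPM in CD4 KO (-0.59 ± 0.09, adjusted p = 0.000669). Zbtb2, also lower in DP KO, stood at 70.7, 69.3 and 74.8 CPM in CD4 WT and at 50.6, 57.1 and 56.5 CPM in CD4 KO (-0.39 ± 0.07, adjusted p = 0.00203). It was thus called lower at both stages, as Zbtb20 was with the batch number as a block. Zbtb24, mutated in a human immunodeficiency with unstable centromeres and an activator of Cdca7, stood at 43.5, 44.7 and 42.1 CPM in WT and at 35.4, 34.5 and 31.6 CPM in KO (-0.36 ± 0.07, adjusted p = 0.0039). Cdca7 was higher in the same KO libraries, with 242.9 ± 19.3 CPM against 70.3 ± 8.72 CPM (SD, n = 3; log2 fold change 1.79, adjusted p = 2.87e-06).

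The other falls were those of Zbtb9 (50.2, 54.1 and 46.9 CPM against 40.4, 37.8 and 30.5; -0.47, adjusted p = 0.00698), Zbtb11, Zbtb21 and Zbtb22. Zbtb11, whose exons share 14.0% of their bases with the antisense gene Zbtb11os1, stood at 72.7, 80.4 and 90.8 CPM in WT and at 61.7, 57.8 and 63.8 CPM in KO (-0.41 ± 0.09, adjusted p = 0.00486). Zbtb21 (-0.29, adjusted p = 0.0347) and Zbtb22 (-0.28, adjusted p = 0.027) fell the least. With total counts in place of TMM their calls were lost (0.0698 and 0.0693). Zbtb20 stood at 23.8, 26.4 and 14.9 CPM in WT and at 15.7, 17.0 and 11.5 CPM in KO, and the groups overlapped (-0.56, adjusted p = 0.0643). Its WT replicate 3 was low, as was its KO replicate 3, and with the batch number as a block the call was made (-0.54, adjusted p = 0.00174), as without CD4 WT replicate 3 (-0.77, 0.00536). Tigit, with which it shares bases, was higher (0.79, adjusted p = 0.00171). Zbtb37, at 71.3, 88.2 and 57.8 CPM in WT and 62.5, 62.3 and 49.2 CPM in KO, was likewise called with the block (-0.31, adjusted p = 0.00774, against 0.119) and without CD4 WT replicate 3 (0.0193).

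Of the rises in CD4, Zbtb10 stood at 5.68, 4.40 and 8.24 CPM in WT and at 13.9, 11.7 and 14.8 CPM in KO, 2.23-fold as in DP (1.16 ± 0.21, adjusted p = 0.00221). Zbtb12 stood at 5.50, 5.25 and 6.37 CPM in WT and between 9.40 and 11.4 CPM in KO (0.86 ± 0.14, adjusted p = 0.00102). The values of both genes separated the genotypes at each stage. Zbtb7a stood at 75.7, 84.4 and 90.7 CPM in WT and at 112, 110.2 and 113 CPM in KO (0.42 ± 0.07, adjusted p = 0.0017). Zbtb8b was counted 4, 5 and 2 times in WT and 51, 44 and 29 times in KO (3.28 ± 0.45, adjusted p = 0.000393). The WT counts are near the floor of 3, which makes the fold imprecise.

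Further rises were called for Zbtb14, which binds GC-rich sequences (39.5, 38.0 and 44.9 CPM in WT, 50.9, 47.6 and 53.8 in KO; 0.32 ± 0.09, adjusted p = 0.0155), for Zbtb8a (0.57 ± 0.19, adjusted p = 0.0368) and for Zbtb5 (0.23 ± 0.08, adjusted p = 0.0388). Zbtb8a exons share 17.9% of their bases with the opposite-strand gene LOC108168979, and Zbtb8a, Zbtb8b, Zbtb12 and Zbtb22 are also annotated on alternative sequences, so their counts are uncertain. The number of members called higher was 4 without CD4 WT replicate 2, with no share over all genes given for that fit. Zbtb5 lost its call without each of the 6 libraries in turn, the adjusted p running from 0.0697 without CD4 KO replicate 1, through 0.0731 without KO replicate 3, 0.0753 without WT replicate 1, 0.0825 without KO replicate 2 and 0.087 without WT replicate 3, to 0.101 without CD4 WT replicate 2. The DESeq2 Wald test gave Zbtb5 0.0672, and no low-count filter 0.12. Zbtb8a lost it without CD4 KO replicates 1 (0.106), 2 (0.0718) or 3 (0.0522) and without CD4 WT replicates 2 (0.106) or 3 (0.0903). Zbtb14 lost it without CD4 WT replicates 1 (0.0596) or 2 (0.0636). Zbtb21 lost it without CD4 KO replicates 1 (0.0741) or 2 (0.139) and CD4 WT replicates 1 (0.135) or 3 (0.051), and Zbtb22 without CD4 KO replicate 1 (0.124) and CD4 WT replicates 2 (0.083) or 3 (0.0683). The other 11 calls held under every alternative tried other than a threshold of 1 on the absolute log2 fold change, which of the 11 Zbtb8b and Zbtb10 reached. With it 13.9% of all genes were called in CD4.

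**Figure D3:**
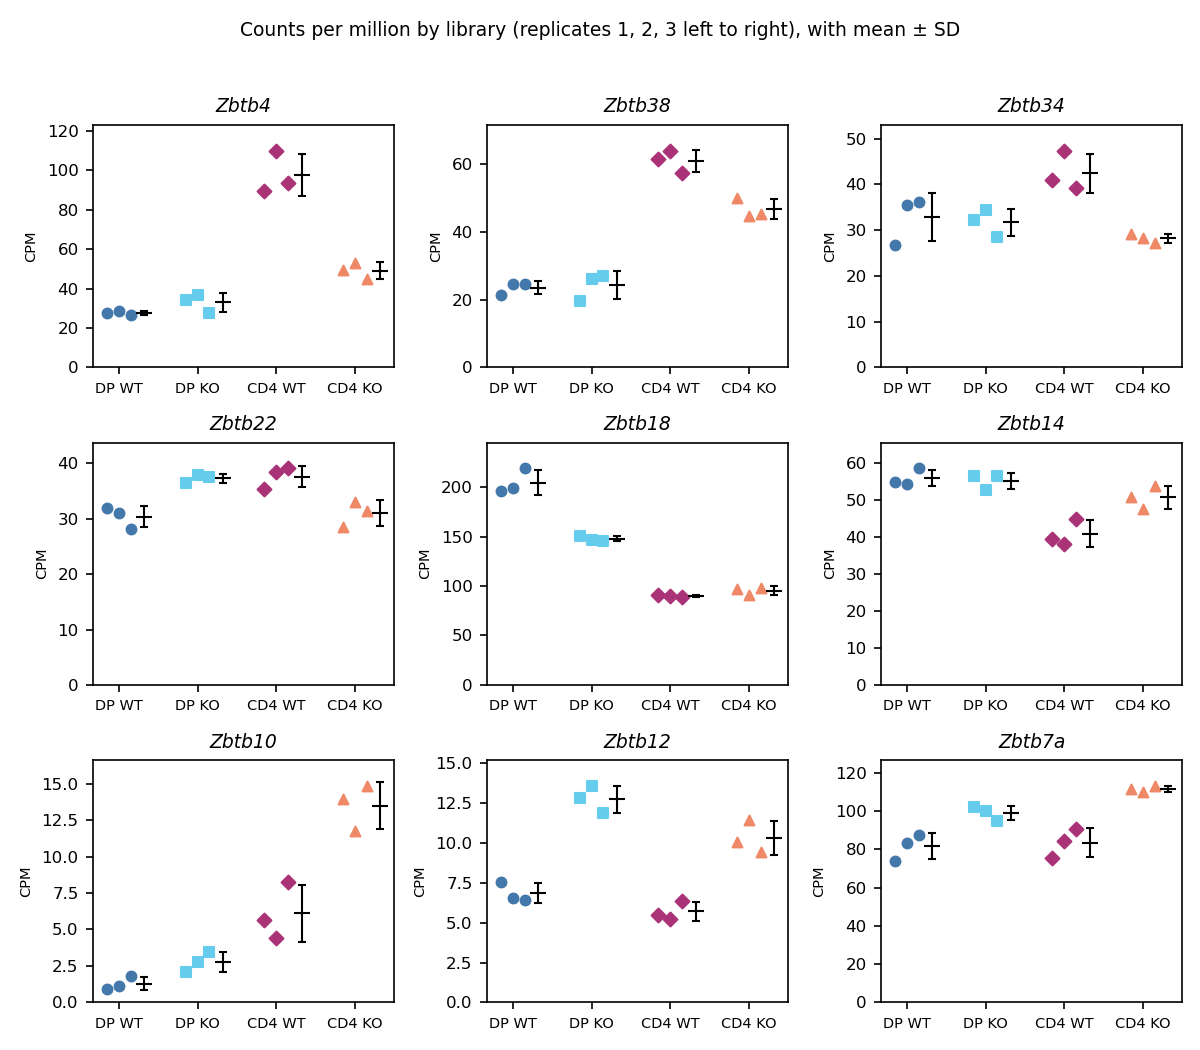
CPM of 9 ZBTB genes in the 12 libraries, replicates 1 to 3 from left to right in each group, with the mean ± SD in black and each vertical axis starting at 0. Zbtb4 sits at 26.7 to 28.7 in DP WT, 89.4 to 109.9 in CD4 WT and 44.8 to 53.1 in CD4 KO, while Zbtb10 and Zbtb12 are higher in KO than in WT at both stages.

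Set side by side, 5 of the 37 members tested in both comparisons were higher in KO at both stages: Zbtb5, Zbtb7a, Zbtb8b, Zbtb10 and Zbtb12. Over all 16125 genes tested in both, 7.43% were higher at both stages. Zbtb2 was lower at both, as were 5.07% of all genes, and Zbtb22 was higher in DP KO and lower in CD4 KO, as were 2.42%. The other called members passed the test at 1 stage, which does not by itself show a difference between the stages. That difference, the log2 fold change in CD4 less the one in DP, was tested as an interaction over all 12 libraries. It was called for 5 of 37 members (13.5%), 2 positive and 3 negative, against 27.8% of all 18431 genes, 14.4% positive and 13.4% negative. The median absolute difference was 0.19 for the family and 0.42 over all genes. With an absolute difference of at least 1 also asked for, 1 member, Zbtb4, was called, and 12.9% of all genes.

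Zbtb4 had the most negative difference, -1.25 ± 0.15 (adjusted p = 5.17e-05). Its DP libraries stood at 27.5, 28.7 and 26.7 CPM in WT and at 34.5, 36.9 and 27.6 CPM in KO, a change of 0.27 that was not called (adjusted p = 0.107), beside the fall of 0.99 in CD4. The difference was -1.16, -1.40 and -1.10 in batches 1, 2 and 3, taken as log2 values with a pseudocount of 0.5. Zbtb22 stood at 31.9, 31.0 and 28.2 CPM in DP WT, 36.4, 37.9 and 37.6 in DP KO, 35.4, 38.3 and 39.1 in CD4 WT and 28.5, 33.1 and 31.4 in CD4 KO. The KO libraries were thus the higher ones in DP and the lower ones in CD4 (difference -0.57 ± 0.11, adjusted p = 0.00174). Zbtb18 gave a positive difference of 0.55 ± 0.08 (adjusted p = 0.000252), since its fall in DP stood beside 91.0, 90.2 and 89.2 CPM in CD4 WT and 97.4, 90.8 and 98.3 CPM in CD4 KO (0.08, adjusted p = 0.299).

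Zbtb34 (difference -0.54 ± 0.16, adjusted p = 0.0261) stood at 26.8, 35.6 and 36.1 CPM in DP WT and at 32.3, 34.3 and 28.4 CPM in DP KO, with overlap, before its fall in CD4. Its call was lost without DP KO replicate 2 (0.0556) or CD4 WT replicate 2 (0.0609) and with DP WT replicate 3 as the only DP WT library (0.143). Zbtb14 (0.33 ± 0.11, adjusted p = 0.0356) stood at 54.9, 54.3 and 58.5 CPM in DP WT and at 56.4, 52.7 and 56.5 CPM in DP KO, again with overlap. The call of Zbtb14 was lost without DP WT replicates 1 (0.0684), 2 (0.0725) or 3 (0.098), DP KO replicates 1 (0.0678), 2 (0.118) or 3 (0.0611), CD4 WT replicates 1 (0.0817) or 2 (0.125) and CD4 KO replicates 1 (0.0919) or 3 (0.119), without the low-count filter (0.168), and with DP WT replicate 3 as the only DP WT library (0.0785). With the batch number as a block 7 members were called negative and 3 positive, adding Zbtb9 (-0.46, adjusted p = 0.00472), Zbtb37 (-0.54, 0.037), Zbtb38 (-0.43, 0.0441), Zbtb25 (-0.31, 0.0387) and Zbtb42 (0.73, 0.0408). Positive calls numbered 1 without DP WT replicate 1 or 2, DP KO replicate 2, CD4 WT replicate 1 or 2, or CD4 KO replicate 1 or 3. Negative calls numbered 5 without DP KO replicate 3 or CD4 KO replicate 1, and 6 without CD4 WT replicate 3. These counts have no share over all genes beside them, so their changes are not shown to be particular to ZBTB genes.

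**Figure D4:**
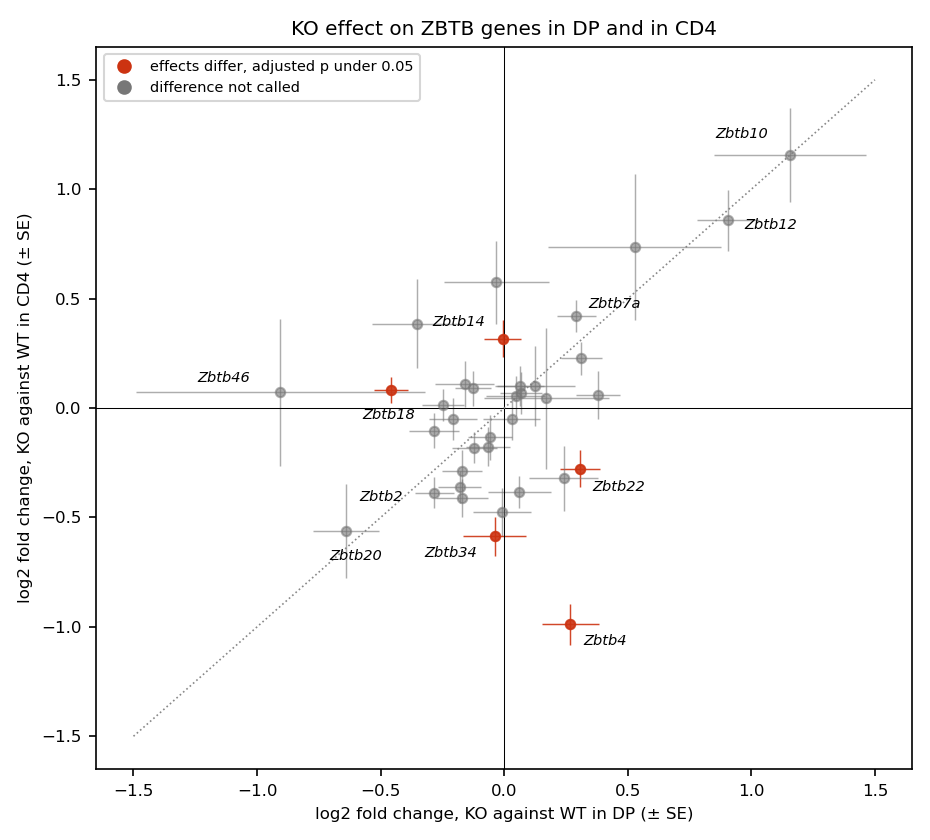
Log2 fold change of KO against WT in DP (horizontal) and in CD4 (vertical), each ± SE, for the ZBTB genes tested at both stages. The dotted line marks equal effects, red marks the 5 members whose effects differed between the stages at an adjusted p under 0.05, and Zbtb8b, at 1.81 and 3.28, lies outside the plotted range.

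With the main settings, the 11 members called in none of the comparisons were Zbtb1, Zbtb3, Zbtb6, Zbtb17, Zbtb26, Zbtb33, Zbtb39, Zbtb41, Zbtb43, Zbtb48 and Zbtb49. Zbtb17 was, however, called lower in DP KO under 6 of 15 alternatives. Zbtb1 stood at 82.8, 103 and 106 CPM in DP WT, 103, 97.7 and 102 in DP KO, 83.8, 107 and 96.6 in CD4 WT and 108, 99.7 and 101 in CD4 KO. All 4 of its groups overlapped. Zbtb17 stood at 87.7, 85.2 and 73.3 CPM in DP WT, 66.7, 74.7 and 59.4 in DP KO, 79.0, 71.1 and 65.6 in CD4 WT and 69.9, 68.1 and 62.8 in CD4 KO, and replicate 3 was the lowest of each group. Zbtb48 (TZAP), which binds telomeric repeats, had mean levels of 33.6 ± 1.71, 30.6 ± 2.34, 35.0 ± 0.749 and 30.8 ± 1.03 CPM in DP WT, DP KO, CD4 WT and CD4 KO (SD, n = 3). A call that was not made does not show that levels were equal.

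Beside the ZBTB genes, 8 BTB zinc finger genes with other names were listed, of which 7 were in the tables and 6 were tested. In DP KO 1 was higher, Hic2 (0.64, adjusted p = 0.00516), and 2 lower, where 30.8% of all genes were called. Bcl6, a repressor of the germinal centre and follicular helper programmes, fell from 201 ± 4.36 CPM in DP WT to 56.1 ± 7.21 CPM in DP KO (-1.83, adjusted p = 1.44e-06), and Patz1 fell by 0.20 on the log2 scale (adjusted p = 0.0374). In CD4 KO 1 was higher, Gzf1 (0.50, adjusted p = 0.00173), and none lower, where 39.5% of all genes were called. The CD4 level of Bcl6 was 43.0 ± 2.95 CPM for WT and 41.5 ± 1.01 CPM for KO.

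Corepressors and partners of ZBTB proteins were listed as 22 genes, all tested. In DP KO 4 were higher and 5 lower, beside 30.8% of all genes called, among them Myc, the partner of Zbtb17 (2.02, adjusted p = 3.51e-06), Hdac4 (0.96, 0.000164), Hdac5 (-1.13, 1.21e-05), Sin3b (-0.90, 4.22e-05) and Hdac1 (-0.41, 0.0052). In CD4 KO 6 were higher and 6 lower, beside 39.5% of all genes called, with Myc at 0.65 (adjusted p = 0.00101), Hdac7 at 0.53 (0.000402), Hdac5 at -1.32 (1.23e-05) and Bcor at -0.36 (0.00145). Myc stood at 33.4 ± 3.70 CPM in DP WT and 133.8 ± 19.3 CPM in DP KO. Zbtb17 in the same libraries was not called in the main fit (-0.28, adjusted p = 0.0632) but was called lower under some alternatives. The shared corepressor scaffold Ncor1, its deacetylase Hdac3, the ubiquitin ligase subunit Cul3, Sin3a and Chd4 were not called in any of the comparisons.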

How the data were processed

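Poly(A) RNA of sorted thymocytes was sequenced as 2×150 base pairs, per the labels' protocols. Raw gene counts were deposited by the authors in 2 tables, 1 for each cell type. The submitters' processing notes name mm10, Subread 1.0.1, DESeq2 and R 4.1.5. The aligner, the use of strand and the handling of multimapping reads were not named in the sources used. Gene positions are those of the DP table.

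Counts were tested with edgeR 4.0.16 (quasi-likelihood test, TMM, default low-count filter, Benjamini-Hochberg over all genes tested, threshold 0.05) in R 4.3.3. Each KO comparison used the 6 libraries of 1 table, the WT comparison the 6 WT libraries and the interaction all 12. The KO and WT comparisons share WT libraries, so their values are only set side by side. The standard error is the log2 fold change over the square root of F. CPM use TMM over the 12 libraries, and RPKM divide by the exon length in the DP table. Genes overlapping others or annotated on alternative sequences are uncertain. Every per-library column was used, and the scripts were tested on simulated data.

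The members, gene lists and rules were chosen with earlier results of these data known. By rule, values by library were meant for up to the 8 largest and 8 smallest called changes of each KO comparison. The limits were 6 and 6 for the WT comparison and 5 and 5 for the interaction (average log2 CPM of at least 1). Members with known roles were added. Such values are left out for Zbtb5, Zbtb21, Zbtb42, Zbtb44 and Zbtb48, and in some groups for others, such as Zbtb8a in CD4 KO. Zbtb8b, and values of Zbtb21, Zbtb22, Zbtb34 and Zbtb40 outside that rule, were chosen after their values were seen.

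The labels give the replicate number as a batch, so it pairs the samples. Over 9669 genes, deviations of same-numbered WT and KO libraries correlated at -0.05, -0.05 and 0.21 in DP and 0.15, 0.29 and 0.47 in CD4. Those of same-numbered DP and CD4 libraries correlated at 0.34, 0.28 and 0.34 in WT and 0.43, 0.65 and 0.71 in KO. None of the main fits, those of the KO comparisons included, uses this pairing, and the batch block does. Alternatives were DESeq2 size factors, total counts, DESeq2 1.42.0, limma-voom (limma 3.58.1), no filter, 10 counts on average, the batch block, 1 model of all 12 libraries, a threshold of 1 on the absolute log2 fold change, DP WT replicate 3 alone, and each library left out in turn. RPKM by the exon length on the chromosome only was chosen after seeing the data. Figures used matplotlib 3.10.9 in Python 3.11.15.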

Additional observations from a re-analysis of the deposited data

Results flagged for a closer look

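The KO effect differed between the stages, by the interaction test in edgeR, for 5 of the 37 members tested. The log2 fold change of KO against WT in CD4 minus that in DP was -1.25 for Zbtb4, -0.57 for Zbtb22 and -0.54 for Zbtb34, and 0.55 for Zbtb18 and 0.33 for Zbtb14. Zbtb4 was called under every alternative tried, and Zbtb18 and Zbtb22 under all but the threshold of 1 on the absolute log2 fold change. The calls of Zbtb34 and Zbtb14 were lost when some single libraries were left out, as given above.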

How the results depend on the processing

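Over the 37 members tested, Zbtb7c being left out, 2353 values were recomputed under the alternatives. Of these, 2213 stayed on their side of the threshold, of which 122 were not called and changed sign, 87 lost a call, 53 gained one and 0 changed sign while called.

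The counts of members called changed most with the choice of DP WT libraries and the size threshold. For most alternatives, here and above, the share of all genes called is not given. Such changes are thus not shown to be particular to the ZBTB genes. With DP WT replicate 3 as the only DP WT library, which is then assumed to vary like the other groups, 2 members were higher and 1 lower in DP, 7 higher in the WT comparison, and 1 positive in the interaction. Asking also for a change of 1 on the log2 scale left 2 higher and 0 lower in DP, 2 and 0 in CD4, 5 and 1 in the WT comparison, and 0 positive and 1 negative in the interaction. Members lower in DP numbered 5 with DESeq2 size factors and 5 in 1 model over all libraries. In the interaction no low-count filter gave 1 positive and 6 negative, and the replicate block 7 negative. The block moved no other count by over 1.5 times, and it ended no call of a member.

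With each library left out in turn, members called numbered 1 to 8 higher and 2 to 6 lower in DP, 4 to 5 higher and 7 to 9 lower in CD4, 8 to 11 higher and 6 to 9 lower in the WT comparison, and 1 to 3 positive and 2 to 6 negative in the interaction. These ranges are not set against the share of all genes called in the same fits, and the cause of the changes was not tested. With the exon length on the chromosome only, an alternative chosen after seeing the data, levels in RPKM rose for Zbtb8a, Zbtb8b, Zbtb12 and Zbtb22. Depth limits Zbtb7c, Zbtb8b, Zbtb32 and Zbtb46 most.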
